A study of Mus musculus with 101 samples.

Results

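The region described here is mouse chromosome 10 from 55 Mb to its end, as seen in copy-number profiles of mammary tumours. It was chosen by an earlier finding in the same profiles, that KB1P and KB1(L1363P)P adenocarcinomas were often lost there. Its members are the genes of the deposited segment matrix that the RefSeq annotation of GRCm38 places on chromosome 10 from 55 Mb on, apart from 5 genes that the rule left out, 4 of which the matrix holds. This gave 1054 of the 43513 genes in the matrix, from Gm31849, which starts at 55.06 Mb, to Gm35405, which ends at position 130536024, a stretch of 75.5 Mb. Of the members, 615 were protein-coding genes, 188 were long noncoding RNAs, 171 were pseudogenes, 37 were microRNA genes and 43 were of other kinds. Because the stretch was selected on losses in KB1P and KB1(L1363P)P tumours, the losses within those groups, and the differences in loss between KB1P and KB2P tumours, are given as a description and without a p.

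The study set mammary tumours with a variant of Brca1 beside those of other mouse models, by low-coverage sequencing of genomic DNA from 98 tumours and 3 spleens. In these conditional models KP tumours have lost Trp53, KB1P tumours have lost Brca1 and Trp53, and KB2P tumours have lost Brca2 and Trp53. In KB1(L1363P)P tumours Trp53 is likewise lost, and Brca1 bears a missense variant of the coiled-coil domain, through which the protein binds Palb2. Loss of Trp53 is therefore shared by all 4 genotypes. In the usual form of these models the genes are deleted by Cre driven from an epithelial keratin promoter, but the labels used here name no promoter, age or treatment. The adenocarcinomas were 29 KB1P, 25 KB2P, 6 KP and 3 KB1(L1363P)P tumours. The sarcomatoid tumours were 12 KB1(L1363P)P, 10 KP and 1 KB1P, and the carcinosarcomas, which mix both tissue types, were 9 KB1(L1363P)P, 2 KP and 1 KB1P. Per the labels the epithelial part was 100% in every adenocarcinoma, 0% in every sarcomatoid tumour and 2% to 98% in the carcinosarcomas. Tumours are named below by their group and a replicate number given in accession order.

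BRCA1, PALB2 and BRCA2 act together in homologous recombination, which repairs broken DNA from an intact sister copy. Tumours without it repair breaks by error-prone joining, and their chromosomes carry many gains, losses and breakpoints. A loss that runs from a breakpoint to the end of a chromosome is a common form of such damage. Mouse chromosomes have their centromere at one end, so that the end of the coordinates is the only distal tip of the chromosome.

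Copy number is given as the authors' segment value, the log2 ratio of corrected read counts after joining of neighbouring stretches at one level. A segment value of 0 is the neutral level of 2 copies, and loss of 1 of 2 copies in every cell would give -1. A member is called lost where the deposited whole-number copy call is under 2, and gained where it is over 2. For nearly all values a loss call goes with a segment value of -0.415 or lower and a gain call with 0.322 or higher. A few members at the edge of a run are called gained at lower values, down to 0.022 in KB1P adenocarcinoma replicate 14. Tumour samples hold normal cells too, so that a segment value between 0 and -0.415 can be a loss in part of the cells or no loss. Fewer tumour cells and a loss in fewer of them cannot be told apart in these bulk samples. The 3 spleens had 0 members called, and their largest segment value was 0.00106 from neutral.

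The 37 microRNA genes all had an entry in the RefSeq table of GRCm38.p6, with 59 mature microRNAs. These held 57 different sequences and 56 different seeds, the bases 2 to 8 that pair with target messages. The only seed found in more than 1 sequence was GGGCUGA, of miR-6911-5p and miR-7662-5p, so that loss of the stretch removed copies of mostly different seeds. The first 8 mature microRNAs by position in a minimal region of loss are shown because loss of the chromosome arm removes copies of these short regulators as well as of proteins. They lie between 92072104 and 93963803, inside the region most often lost in KB1(L1363P)P adenocarcinomas. Capitals mark the seed, and sequences run 5′ to 3′.
miR-135a-2-3p: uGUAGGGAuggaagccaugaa
miR-135a-5p: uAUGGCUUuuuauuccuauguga
miR-1251-3p: cGCUUUGCucagccaguguag
miR-1251-5p: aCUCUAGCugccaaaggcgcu
miR-1931: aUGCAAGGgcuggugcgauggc
miR-7688-5p: uAGCUGGGcaugaucugaugagc
miR-7688-3p: uCUGGCUUaugccuagcuuuc
miR-331-3p: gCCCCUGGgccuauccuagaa

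Mir135a-2 lies on the minus strand, with mature products between 92072104 and 92072163. Mir1251 lies on the same strand between 92137152 and 92137210. The mature sequence of Mir1931 lies on the plus strand at 93162879 to 93162900. Mir7688 lies on the plus strand between 93433107 and 93433162, and Mir331 on the minus strand at 93963783 to 93963803. The genes of the first 7 sequences were lost in 15 and gained in 1 of 29 KB1P adenocarcinomas, and they were lost in 12 and gained in 1 to 2 of 25 KB2P adenocarcinomas. Mir331 was lost in 16 KB1P and 13 KB2P adenocarcinomas and gained in 1 of each group.

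Another 3 microRNAs lie nearer to the end of the chromosome, and they were chosen after their values were seen. let-7i belongs to the let-7 family, which restrains growth genes such as Hmga2, and Hmga2 lies in the same stretch. miR-26a-2 gives miR-26a-5p, and miR-763 lies near Hmga2.
miR-763: cCAGCUGGgaagaaccaguggc
let-7i-5p: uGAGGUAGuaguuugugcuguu
miR-26a-5p: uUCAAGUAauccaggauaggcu

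miR-763 lies at 120448052 to 120448073 on the minus strand, let-7i-5p at 122985698 to 122985719 on the minus strand and miR-26a-5p at 126995543 to 126995564 on the plus strand. The genes of all 3 were lost in 17 of 29 KB1P adenocarcinomas and gained in 0. In KB2P adenocarcinomas Mir763 was lost in 12 of 25 tumours, and Mirlet7i and the gene of miR-26a-5p were lost in 11, and each of the 3 was gained in 2.

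Loss of the stretch was found almost only in adenocarcinomas. At least 1 member was lost in 38 of 63 adenocarcinomas, in 1 of 12 carcinosarcomas and in 0 of 23 sarcomatoid tumours. At least 1 member was gained in 37 adenocarcinomas, 3 carcinosarcomas and 0 sarcomatoid tumours. Histology and genotype go together in this series, since all KB2P and nearly all KB1P tumours were adenocarcinomas, and no test was made of histology over all tumours.

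The share of members called lost averaged 44.2% ± 39.1 (SD, n = 29) in KB1P adenocarcinomas, with a lowest value of 0%, a median of 51.1% and a highest of 100%. It averaged 41.2% ± 36.8 (SD, n = 25) in KB2P adenocarcinomas, with a lowest value of 0%, a median of 39.6% and a highest of 94.7%. The ranges of both genotypes overlapped almost wholly. In KB1P, 18 of 29 adenocarcinomas had a loss, 4 of them over more than 90% of the members and 14 over part of the stretch. In KB2P, 17 of 25 had a loss, 3 over more than 90% and 14 over part.

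The 3 KB1(L1363P)P adenocarcinomas had 57.6%, 0% and 54.1% of members lost. Replicate 2, without a loss call, still had a mean segment value of -0.26, against -0.37 in replicate 1 and -0.49 in replicate 3. All 3 thus lay below the neutral level over the stretch. Of the 9 KB1(L1363P)P carcinosarcomas only replicate 6, with an epithelial part of 95%, had a loss, over 63.5% of the members. The other 8 carcinosarcomas of this genotype were at 0%, as were all 12 sarcomatoid tumours. Of the 6 KP adenocarcinomas, only replicate 3 had a loss, over 64.0% of the members, and the other 5 had no call of either kind.

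**Figure D1:**
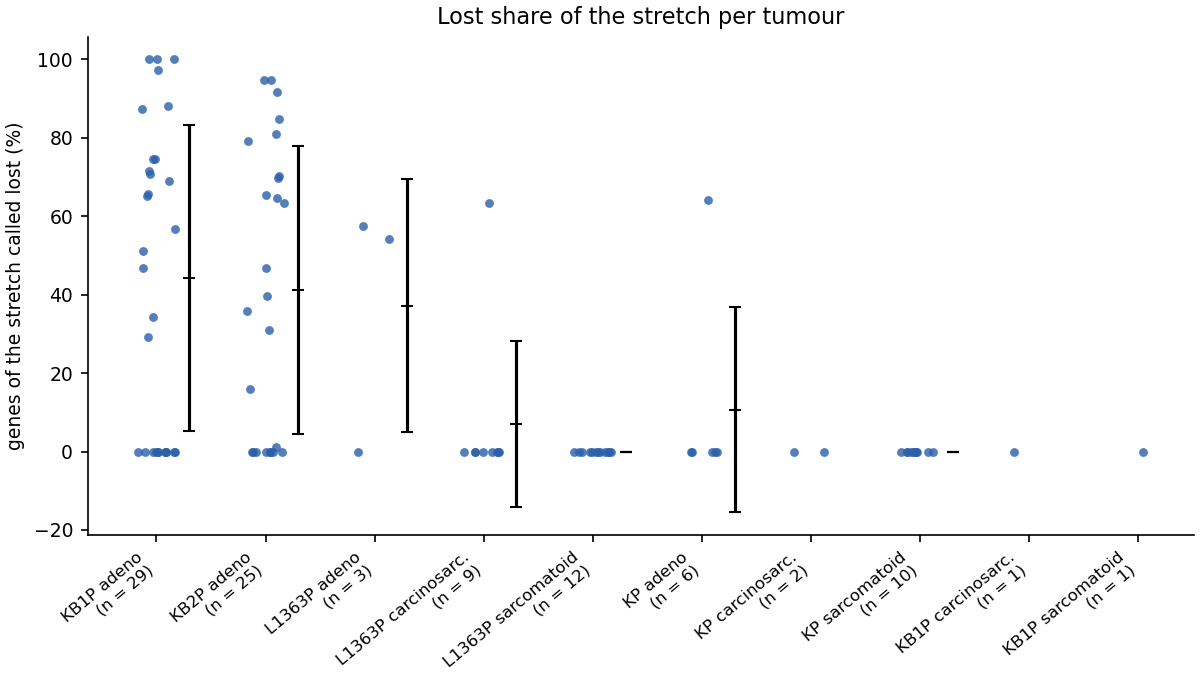
Percent of the 1054 members called lost in each tumour (points), by genotype and histology, with the mean and SD of each group. KB1P and KB2P adenocarcinomas spread from 0% to 100% and to 94.7%, while 1 KP adenocarcinoma and 1 KB1(L1363P)P carcinosarcoma stood alone above 0% in their groups.

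Some tumours lay below neutral without reaching a loss call. A segment value of -0.2 or lower without any loss call was found in 4 KB1P, 5 KB2P, 1 KB1(L1363P)P and 1 KP adenocarcinomas and in 3 KB1(L1363P)P sarcomatoid tumours. KB1P replicate 2 was at -0.38 over the whole stretch, and KB2P replicate 6 was at -0.41, both without a breakpoint. In 2 of these 14 tumours the median over all autosomes was also below -0.2. KP adenocarcinoma replicate 1 was at -0.24 in the stretch and had a median of -0.23 over all autosomes, and KB1(L1363P)P sarcomatoid replicate 5 was at -0.23 after 92.8 Mb and had an autosomal median of -0.22. In the other 12 the autosomal median lay between -0.036 and 0.089. With a loss set at -0.2 or lower, the share in KB1(L1363P)P sarcomatoid tumours was 23.1% in place of 0%. It came from replicates 3 and 6, at 100%, and from replicate 5, at 77.5%.

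**Figure D2:**
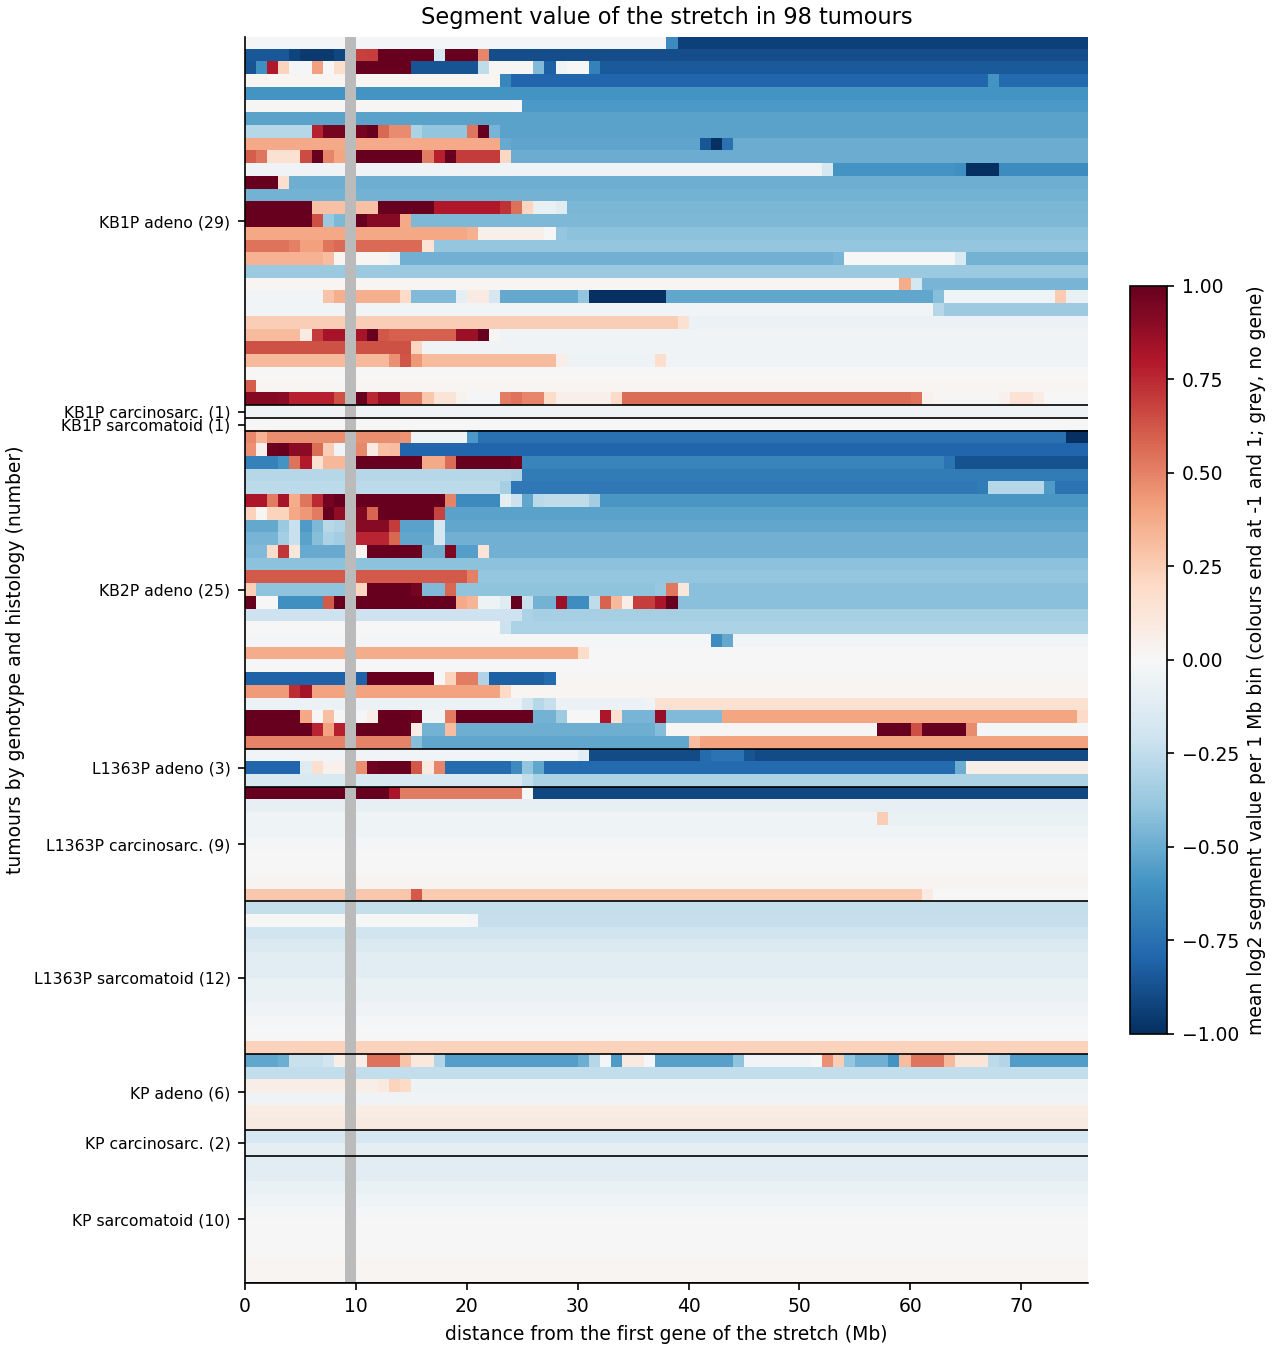
Mean segment value of the members in each bin of 1 Mb (columns, distance from the first member in Mb) in each of 98 tumours (rows, by genotype and histology), with colours limited to -1 (blue) and 1 (red) and grey where a bin holds no member. Loss fills the right part of many KB1P and KB2P rows, gain fills parts of the left, and sarcomatoid rows are nearly flat.

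Losses did not cover the stretch evenly, and its first 15 Mb were gained more often than lost. In KB1P adenocarcinomas 838 members were lost in more tumours than they were gained in, 174 were gained in more and 42 were even. The last member gained as often as lost was Mcm3ap at 76.47 Mb, a gene that helps export messenger RNA. In KB2P adenocarcinomas 850 members were lost more often, 201 gained more often and 3 were even, and the last such member was Gm6407 at 73.69 Mb. Calling the whole stretch lost thus goes against the data up to 70 Mb, where most members were gained more often in both groups, and between 70 and 75 Mb losses and gains were close in number.

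At the 55 Mb border the values changed little. Gm25602, the last gene before it, was lost in 5 and gained in 12 KB1P adenocarcinomas, and it was lost in 4 and gained in 11 KB2P adenocarcinomas. Gm31849, the first gene after it, was lost in 5 and gained in 12 KB1P adenocarcinomas, and it was lost in 5 and gained in 11 KB2P adenocarcinomas. The 502 placed genes of chromosome 10 before 55 Mb were mostly gained: on average 17.6% of them were lost and 44.8% gained in KB1P, and 8.92% were lost and 47.8% gained in KB2P.

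The stretch was also read in windows of 5 Mb, in which a tumour counts as lost or gained where at least 50% of the members of the window were so called. Between 65 and 70 Mb, 4 KB1P adenocarcinomas were lost and 14 gained, at a mean segment value of 0.37. Among KB2P adenocarcinomas 0 were lost and 16 gained, at 0.67. Between 75 and 80 Mb the balance had turned, with 9 lost and 3 gained in KB1P and 10 lost and 4 gained in KB2P. Between 80 and 85 Mb KB1P had 13 lost and 1 gained at a mean of -0.27, and KB2P had 14 lost and 1 gained at -0.38. Between 120 and 125 Mb KB1P had 17 lost and 0 gained at a mean of -0.42, and KB2P had 12 lost and 2 gained at -0.30. Whether the groups differ in this course along the stretch was not tested window by window. In KB1P 567 members were lost in 15 or more of the 29 tumours, and in KB2P 177 members were lost in 13 or more of the 25.

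**Figure D3:**
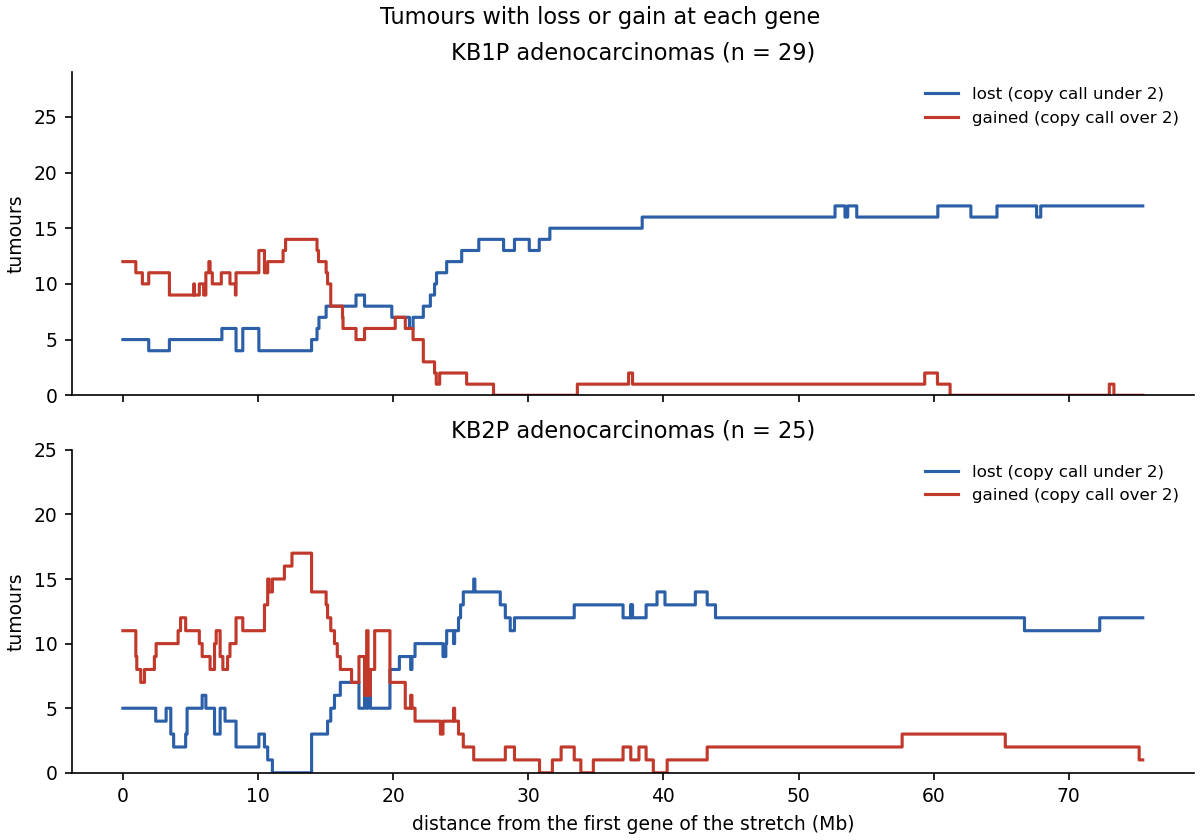
Number of KB1P (top, n = 29) and KB2P (bottom, n = 25) adenocarcinomas with each member lost (blue) or gained (red), against distance from the first member in Mb. Gains exceed losses over the first 15 Mb, and losses reach 17 tumours in KB1P near the end and 15 in KB2P at their peak.

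Within single tumours, the members before the middle of the stretch, at 92.8 Mb, were set against those after it. KB2P adenocarcinomas had a mean segment value of -0.071 ± 0.316 (SD, n = 25) over the 555 members before the middle and -0.30 ± 0.362 over the 499 after it. The difference was 0.23 ± 0.382 (SD), with 19 tumours higher before the middle, 4 lower and 2 equal (two-sided permutation test by sign flips, p = 0.00432, adjusted over 6 groups p = 0.013). The 6 groups included KB1P, on which the stretch was selected, and its smaller p lowered the adjusted p of KB2P. Replicates 10 and 12, with nearly the same segment profile, both count among the 19 higher tumours, at 0.118 and 0.098. The KB2P result rested on 1 of the 2 library series of KB2P. In library series 3196 the difference was 0.31 ± 0.362 (SD, n = 20), with 16 higher and 2 lower (permutation p = 0.00056), whereas in library series 3499 it was -0.077 ± 0.328 (SD, n = 5), with 3 higher and 2 lower (exact permutation p = 0.688, where 0.0625 is the smallest that 5 tumours allow). The split into series was chosen after seeing the data. KB1P adenocarcinomas, on which the stretch was selected, had a difference of 0.32 ± 0.285 (SD, n = 29), with 23 higher, 1 lower and 5 equal. In library series 2766, 5289 and D, which held 8, 8 and 11 of them, it was 0.41, 0.25 and 0.32.

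**Figure D4:**
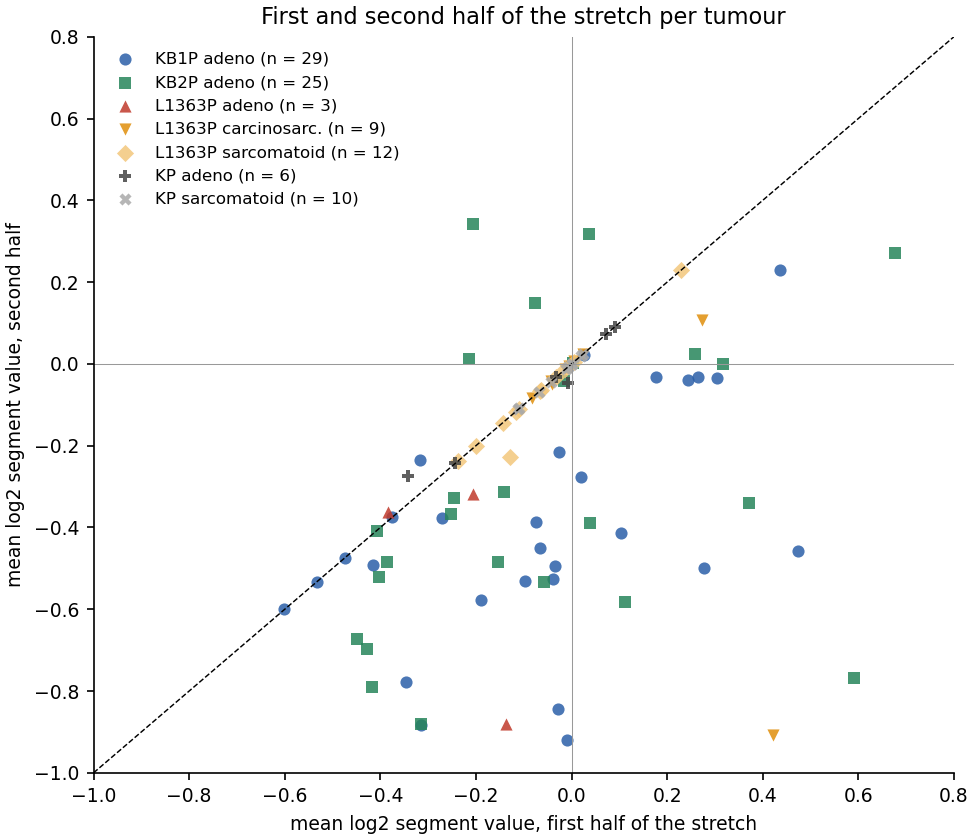
Mean segment value of the members before the middle of the stretch (horizontal axis) against that after it (vertical axis) in each tumour, with the dashed line where both are equal. Most KB1P (23 of 29) and KB2P (19 of 25) adenocarcinomas lie below the line, and sarcomatoid tumours lie on it or near it.

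Many losses ran to the last member, counted across gaps of at most 1 Mb between lost runs. Such a loss was found in 17 of 29 KB1P and 12 of 25 KB2P adenocarcinomas, in 1 of 3 KB1(L1363P)P adenocarcinomas, in 1 of 9 KB1(L1363P)P carcinosarcomas and in 1 of 6 KP adenocarcinomas. In KB1P its length was 10.8 to 75.5 Mb with a median of 52.3 Mb, and in KB2P it was 3.19 to 61.5 Mb with a median of 52.8 Mb. Its mean segment value was -0.93 to -0.45 with a median of -0.53 in KB1P, and -0.83 to -0.42 with a median of -0.56 in KB2P. Lengths were counted inside the stretch only. The highest, 75.5 Mb, is the full stretch and a lower bound for losses that cover it from the first member on.

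The starts of these losses were spread over the stretch, with the greatest number between 75 and 85 Mb in KB1P. Of the 17 in KB1P, 4 began before 60 Mb, 1 between 60 and 75 Mb, 7 between 75 and 85 Mb, 2 between 85 and 100 Mb and 3 from 100 Mb on. Of the 12 in KB2P, 0 began before 60 Mb, 5 between 60 and 75 Mb, 3 between 75 and 85 Mb, 3 between 85 and 100 Mb and 1 from 100 Mb on. The 5 include KB2P replicates 10 and 12, with nearly the same segment profile. The median start was 78.27 Mb in KB1P and 77.7 Mb in KB2P. KB1P replicates 1, 4 and 5 were lost from the first member on at one level, of -0.53, -0.60 and -0.47, and had no breakpoint in the stretch.

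The first lost genes of KB1P between 75 and 85 Mb were Lss in replicate 14 (76.53 Mb), Adarb1 in replicate 16 (77.29 Mb), Gm47922 in replicate 15 (78.12 Mb), Agpat3 in replicate 13 (78.27 Mb), Olfr1351 in replicate 7 (79.02 Mb), Cbarp in replicate 20 (80.13 Mb) and Gm34184 in replicate 25 (84.04 Mb). Lss makes lanosterol on the way to cholesterol, Adarb1 edits RNA and Agpat3 makes membrane lipids. No gene was the first lost one in more than 1 of these 7 tumours. In KB2P the losses began at Snrpd3 in replicate 11 (75.52 Mb), at Med16 in replicate 16 (79.89 Mb) and at Gpx4 in replicate 17 (80.05 Mb). Snrpd3 is a splicing factor, Med16 a subunit of the Mediator complex and Gpx4 the enzyme that protects membranes from lipid peroxides. Replicate 7 of KB1P carries the KB1(L1363P)P model's name in its description field and was kept under its genotype label.

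Some losses began late, and their first genes are edges of the minimal regions near the end. In KB1P the latest starts were Otogl in replicate 18 (107.8 Mb), Thap2 in replicate 22 (115.4 Mb) and Grip1os2 in replicate 6 (119.7 Mb), and these losses were 22.78, 15.17 and 10.79 Mb long. Replicate 6 had another loss of 538 members, from 69.02 to 108.5 Mb. In KB2P the latest start was Inhbe, a subunit of an activin, in replicate 1 (127.3 Mb), which also had an earlier loss. Of the KB1P losses that reached the last member, 5 began next to a gain and 3 at the first member, and of those in KB2P 7 began next to a gain. Gain followed by loss along the same chromosome was thus frequent: 10 KB1P and 12 KB2P adenocarcinomas had a gained member before the middle and a lost member after it. KB2P replicates 10 and 12, with nearly the same segment profile, both count among these 12 tumours and among the 7 losses next to a gain.

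**Figure D5:**
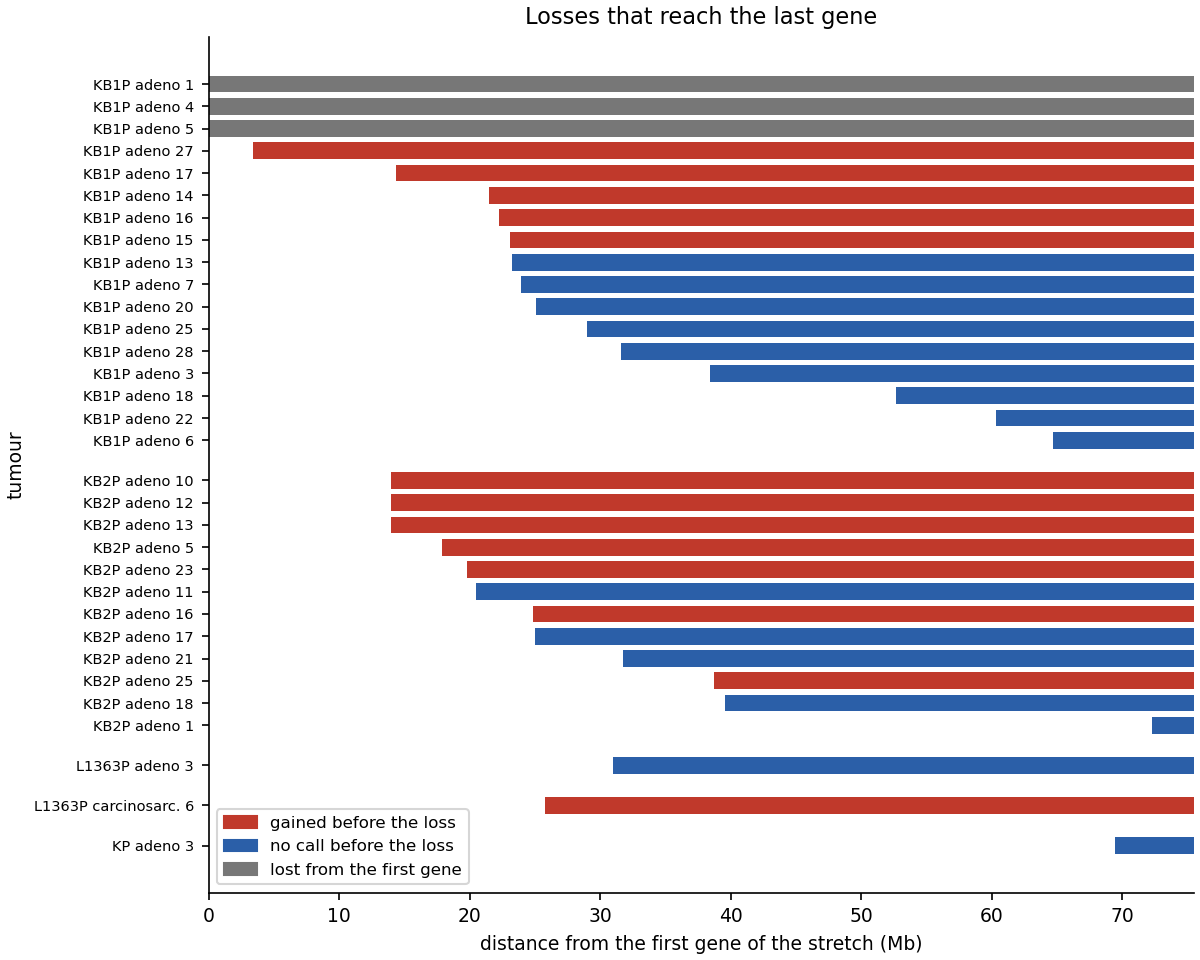
Losses that reach the last member, 1 bar a tumour from the first lost member to the end (distance from the first member in Mb), coloured by the state just before it: gained (red), no call (blue) or lost from the first member on (grey). The 17 KB1P and 12 KB2P bars begin at many places, with 7 KB1P starts between 75 and 85 Mb of the chromosome.

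Pooled over tumours, KB2P losses made up more and shorter runs. The 18 KB1P adenocarcinomas with a loss held 31 runs of lost members with a median length of 31.9 Mb, and the 17 KB2P adenocarcinomas held 47 runs with a median of 3.49 Mb. KB2P replicates 10 and 12, with nearly the same segment profile, held 5 runs each. Over all tumours of a group, the median was 1 run a tumour in KB1P and 1 in KB2P. Breakpoints, counted as steps of more than 0.1 in segment value between neighbouring members, numbered 7.31 a tumour in KB1P and 11.8 in KB2P. The difference was -4.45 (SE 2.76). No p is given for it, since the stretch was selected on KB1P losses, whose edges are counted among the breakpoints. With any change of segment value counted as a breakpoint, the difference was 5.09 in the other direction.

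Edges of losses gathered between 65 and 80 Mb. In KB2P, 8 tumours had an edge of a loss between 70 and 75 Mb, 7 between 75 and 80 Mb and 6 between 65 and 70 Mb, and in KB1P 7 had one between 75 and 80 Mb and 4 between 65 and 70 Mb. Several edges fell at the same gene in different tumours. Gm33035 (69020740) was the first lost member of a run in KB1P replicate 6 and in KB2P replicates 10, 12 and 13, and Gm34776 (72939935) was so in KB1(L1363P)P adenocarcinoma replicate 1 and in KB2P replicates 5, 10 and 12. Gm7034 (74820632) began a run in KB2P replicates 8, 21 and 23. KB2P replicates 10 and 12, from different library series, had nearly the same segment profile over all genes (correlation above 0.98), and shared edges between these 2 count as 1 observation at most.

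The minimal regions of loss, the members lost in the most tumours of a group, lay in different places in KB1P and KB2P. These peaks stood little above their surroundings. In each window of 5 Mb from 95 to 115 Mb, 16 KB1P adenocarcinomas were lost, and in that from 80 to 85 Mb 14 KB2P adenocarcinomas were lost. In KB1P the highest count was 17 of 29 tumours, reached in 5 runs of members. They were Otogl to Gm36283 (chr10:107760530-108451616, 6 members), Gm5136 alone, Thap2 to Nup107 (chr10:115368398-117792736, 43 members), Grip1os2 to A130077B15Rik (chr10:119746062-122569891, 40 members) and Mirlet7i to Gm35405 (chr10:122985640-130536024, 204 members). Over the 14 tumours with partial loss the same runs were lost in 13. KB2P had 11 to 12 of 25 tumours lost in these runs. When 10 KB1P tumours titled KB1PM, a name the labels do not explain, and replicate 7 were left out, 11 of 18 were lost at all of these runs but Thap2 to Nup107, a check added after seeing the data.

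The first KB1P run holds Ppp1r12a, a subunit of myosin phosphatase, and Pawr, which promotes cell death. Both had a segment value of -0.38 ± 0.336 (SD, n = 29) in KB1P, with a lowest value of -0.93, a median of -0.47 and a highest of 0.56. In KB2P they were at -0.30 ± 0.35 (SD, n = 25), between -0.79 and 0.41. The members of a run mostly share one segment, so that such genes carry 1 observation and not several.

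The run from Thap2 to Nup107 holds Lgr5, a receptor of stem cells for R-spondins, Ptprb, a phosphatase of blood vessel cells, Frs2, an adaptor of growth factor receptors, Yeats4, a reader of acetylated histones, Cpsf6, a factor of messenger RNA cleavage, Cct2, a subunit of a protein-folding chamber, and Nup107 of the nuclear pore. Frs2 was lost in 17 and gained in 0 KB1P adenocarcinomas, at -0.40 ± 0.292 (SD, n = 29) and between -0.93 and 0.023. In KB2P it was lost in 12 and gained in 3, at -0.19 ± 0.726 (SD, n = 25) with a median of -0.41 and a highest value of 2.88. The KB1P values lay near or below neutral throughout, and the KB2P values reached from loss to high gain.

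The run from Grip1os2 to A130077B15Rik holds Hmga2, a chromatin protein of embryonic growth, Wif1, a secreted inhibitor of Wnt signals, Rassf3, of a family of growth restraints, Irak3 and Tbk1, an inhibitor and a kinase of innate immune signalling, and Xpot, the exporter of transfer RNA. Hmga2, Wif1, Rassf3, Tbk1 and Xpot were each lost in 17 and gained in 0 KB1P adenocarcinomas, at -0.42 ± 0.303 (SD, n = 29), from -1.05 over a median of -0.47 to 0.023. In KB2P they were lost in 12 and gained in 2, at -0.31 ± 0.36 (SD, n = 25), from -0.87 over -0.41 to 0.41. Irak3 reached 2.43 in a KB2P tumour. Restraints and promoters of growth thus lay side by side on the same lost segment.

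The last KB1P run, of 7.55 Mb, holds Mirlet7i, Usp15, a deubiquitinase, Lrig3, Gli1, the transcription factor of Hedgehog signals, Stat6 and Stat2, transcription factors of cytokine responses, Nab2, Prim1, a subunit of DNA primase, Naca, Ptges3, Timeless, which protects replication forks, Il23a, a cytokine subunit, Cs, the citrate synthase, Rps26 of the ribosome, and Cdk2, a kinase of the cell cycle. Cdk2 and Rps26 were lost in 17 and gained in 0 KB1P adenocarcinomas, at -0.41 ± 0.279 (SD, n = 29), from -0.93 to 0.023. Timeless, Stat2, Il23a, Cs and Ptges3 were lost in 17 and gained in 1, and their highest value was 0.78. In KB2P, Gli1, Usp15, Lrig3 and Mirlet7i were lost in 11 of 25 adenocarcinomas and the others of these in 12.

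In KB2P the highest count was 15 of 25 tumours, in a short run of 5 members from Diras1 to Creb3l3 (chr10:81019589-81098872), of 0.0793 Mb. Over the tumours with partial loss it was lost in 12 of 14, and without 1 of the near-identical profiles it was lost in 14 of 24. Creb3l3 is a transcription factor of lipid metabolism, and Diras1 a small GTPase of the Ras family that restrains growth. The mean segment value of the run was -0.43 ± 0.28 (SD, n = 25) in KB2P, with a lowest value of -0.82, a median of -0.48 and a highest of 0.37. In KB1P 13 of 29 were lost there, at -0.25 ± 0.342 (SD, n = 29), from -0.88 over -0.38 to 0.49. The groups overlapped over most of their ranges. The size of the run depended on the threshold. With loss set at -0.2 or lower, 21 of 25 KB2P tumours were lost over 50 members, from Diras1 to 1700028I16Rik (1.81 Mb). In KB1P 21 of 29 were then lost at the peak, whose first run began at Gm40770 (117400786). Whether the place of the peak differs between the genotypes was not tested.

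Next to this run lie Map2k2, the kinase MEK2 of the MAPK cascade, Gna11, a G-protein subunit, Sirt6, a deacetylase that keeps chromatin and DNA ends intact, and Tdg, a glycosylase of base excision repair. Each was lost in 14 of 25 KB2P adenocarcinomas and gained in 1, at -0.42 ± 0.282 (SD, n = 25). In KB1P, Map2k2 was lost in 13 and Gna11, Sirt6 and Tdg were lost in 14 of 29.

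With KB1P and KB2P adenocarcinomas together, 30 of 54 tumours were lost at the highest point, in Mir7211 to Gm29684 (chr10:94586137-95145825, 5 members) and Mir3966 to Gm25658 (chr10:97423478-97967090, 10 members). The second run holds Dcn, a proteoglycan of the matrix that binds growth factors. Dcn was lost in 16 and gained in 1 of 29 KB1P adenocarcinomas, from -1.24 over a median of -0.46 to 0.56. In KB2P it was lost in 14 and gained in 1 of 25, from -0.79 over -0.42 to 0.41.

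In KB1(L1363P)P adenocarcinomas 2 of 3 were lost over a single long run from Syn3 to Gm19090 (chr10:86048746-119343266, 322 members), because replicate 3 was lost from Syn3 (86.05 Mb) to the end at -0.88 and replicate 1 was lost from 81.56 Mb up to Gm19090 at -0.78. The third tumour, replicate 2, had a segment value of -0.32 over the run. Over the same run KB1P adenocarcinomas were at -0.36 ± 0.312 (SD, n = 29), with 14 to 17 lost, and KB2P adenocarcinomas at -0.30 ± 0.331 (SD, n = 25), with 12 to 14 lost. With only 3 tumours the run says little about which genes lie at its core.

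KB1(L1363P)P carcinosarcoma replicate 6 held 1 gained and 1 lost part, with 12 breakpoints. All 385 members before Sf3a2 (80.8 Mb) were gained, at a mean of 1.01 and up to 3.12, and all 669 members from Sf3a2 to the end were lost at -0.91. In KP adenocarcinoma replicate 3 the loss was broken into 8 runs between 55.06 Mb and the end, at mean levels of -0.57 to -0.49, with 3 gained runs between them. Its gained run from 114.8 Mb, of 58 members, covered the KB1P run of Thap2 to Nup107, and its gained run from 107.1 Mb, of 13 members, covered Ppp1r12a and Pawr. This KP tumour was thus gained in members of 2 of the KB1P minimal regions. It was lost over most of the last KB1P region, Mirlet7i to Gm35405, of 204 members. Its lost run from 4930503E24Rik to Gm35405, of 197 members, lies inside that region, and another lost run held Mirlet7i and Usp15.

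Gains peaked in the first part of the stretch. In KB1P 14 of 29 adenocarcinomas were gained from Jmjd1c to Cdk1 (chr10:67096351-69352912, 28 members). In KB2P 17 of 25 were gained, and 0 lost, from 4930563J15Rik to Tmem26 (chr10:67568518-68782655, 14 members), inside the KB1P run. The shared run holds Zfp365, which protects fragile sites, and Arid5b, a chromatin regulator, while Cdk1, the kinase that drives mitosis, ends the KB1P run.

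Arid5b was gained in 14 and lost in 4 KB1P adenocarcinomas, at 0.39 ± 0.857 (SD, n = 29), from -0.60 over a median of 0.24 to 3.69. In KB2P it was gained in 17 and lost in 0, at 0.86 ± 1.04 (SD, n = 25), from -0.41 over 0.49 to 3.31. Both groups held tumours near neutral and tumours with high gain. Cdk1 was gained in 14 and lost in 5 KB1P tumours and gained in 14 and lost in 3 KB2P tumours, with highest values of 2.94 and 2.86. In KB1(L1363P)P the only gained adenocarcinoma, replicate 1, reached 1.71 at Arid5b, and among its carcinosarcomas replicate 6 and replicate 8 were gained at Ccdc6 and Ank3.

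High gain, a segment value of 1 or more, was found in 8 KB1P and 13 KB2P adenocarcinomas, in 1 KB1(L1363P)P adenocarcinoma and in 1 KB1(L1363P)P carcinosarcoma. The highest members, named after their values were seen, were Gm32255 at 3.69 in KB1P replicate 28, Ascc1 at 3.41 in KB2P replicate 16, 4930521O17Rik at 3.31 in KB2P replicate 23 and Cabcoco1 at 3.23 in KB2P replicate 25. Of the 23 tumours with high gain, 15 had their highest member before 70 Mb and 7 between 70 and 80 Mb. In KB2P replicate 8 it lay farther on, where 1700010J16Rik (112.7 Mb) reached 3.21. KB2P replicates 3 and 25 also held runs of high gain beyond 80 Mb, up to 1.46 from Mir135a-2 on and up to 2.26 from Cfap54 on.

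Deep loss, a segment value of -1 or lower, was found in 3 KB1P and 2 KB2P adenocarcinomas. KB1P replicate 15 was at -1.24 from Gm33843 to Gm8633 (chr10:96524424-98351867, 18 members), which holds Btg1, a brake on cell division, and Dcn. KB2P replicate 19 had its only loss at an overlapping place, Mir3966 to Gm34297 (12 members), at -0.75. KB1P replicate 18 was at -1.05 from Irak3 to Mirlet7i (42 members), and KB1P replicate 29 was between -1.30 and -1.04 from Gm5174 to Cfap54 (68 members), a stretch with Igf1, the insulin-like growth factor, and Apaf1, the core of the apoptosome. KB2P replicate 11 was at -2.40 over the last 40 members from Olfr787, and KB2P replicate 25 was at -1.23 over 5 members from Olfr1351 to Vmn2r82. Those last 2 runs begin at odorant receptor genes. In all 71 members belong to the odorant and pheromone receptor families, whose genes have close copies, and their values are less certain because the treatment of such copies in counting is not given in the sources used here.

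Listed genes near each other had nearly the same counts in whichever list they stood. The 6 lists, chosen with earlier results of these data known, named 99 genes, of which 90 were members. The median number of KB1P adenocarcinomas with a loss was 15 for genome maintenance (15 members), 16 for growth restraint (19), 15 for cell death (8), 15 for growth promotion (19), 16.5 for immune genes (10) and 16 for essential machinery (19), beside 15 over all members. In KB2P the median was 12 in all 6 lists and 12 over all members. Every list held both members lost in 17 KB1P tumours and members lost in 8 or fewer.

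Among genes of genome maintenance, Tet1, which oxidises methylated cytosine, Dna2, a nuclease of end resection, and Sirt1 lay in the early gained part. Tet1 and Dna2 were lost in 6 and gained in 11 KB1P adenocarcinomas, and they were lost in 4 and gained in 9 KB2P adenocarcinomas. Parpbp, an inhibitor of recombination, was lost in 15 and gained in 0 KB1P adenocarcinomas, and it was lost in 12 and gained in 2 KB2P adenocarcinomas. Usp15 and Prim1 were lost in 17 and gained in 0 KB1P tumours.

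Among restraints of growth, Smarcb1, a core subunit of the SWI/SNF remodelling complex and a tumour suppressor, lay at the turning point at 75.9 Mb. It was lost in 7 and gained in 7 KB1P adenocarcinomas, from -0.86 over a median of -0.0073 to 1.97. In KB2P it was lost in 9 and gained in 7, from -0.79 over -0.26 to 2.93. Loss and gain were about as frequent in either group. Ccdc6 was lost in 8 and gained in 11 KB1P tumours and lost in 3 and gained in 13 KB2P tumours.

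Among genes of cell death, Apaf1 was lost in 15 and gained in 1 KB1P adenocarcinomas, at -0.34 ± 0.383 (SD, n = 29), and it was lost in 13 and gained in 1 KB2P adenocarcinomas, at -0.36 ± 0.337 (SD, n = 25). Ddit4, an inhibitor of mTOR under stress, was gained in 9 and 11 tumours of these groups and lost in 5 of each. Among growth promoters, Igf1 was lost in 15 and gained in 0 KB1P tumours, and Hk1, a hexokinase, was gained in 10 and lost in 5. Among immune genes, Ifng, the interferon of T cells, was lost in 16 and gained in 0 KB1P adenocarcinomas and lost in 12 and gained in 3 KB2P adenocarcinomas. Prf1, the perforin of killer cells, was gained in 11 and lost in 5 KB1P tumours. Among essential genes, the chaperone Hsp90b1 was lost in 15 KB1P and 12 KB2P tumours and gained in 0 of either.

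The design gave 3 comparisons between groups that were tested, each on the whole matrix and on 1 value a tumour. The first and second share the KB2P tumours. In the first, KB1P minus KB2P adenocarcinomas, KB1P being a group on which the stretch was chosen, limma called 0 of 1054 members at an adjusted p under 0.05, against 866 of all 43513 genes (1.99%). At an unadjusted p under 0.05 there were 36 members (3.42%), against 16.9% of all genes. The member with the lowest p was Cabcoco1 in the gain peak, at a difference of -0.54 (SE 0.184), and it was not called. Without the 10 KB1PM tumours and replicate 7, limma called 5 members, 4930545H06Rik, Cabcoco1, Gm32872, Gm7594 and Tmem26. All were lower in KB1P by 0.69 to 0.71 on the log2 scale, and all 5 lie in the KB2P gain peak. Those 5 are 0.474% of the members, against 764 of all genes (1.76%) called in that fit. These calls are a description, since the stretch was chosen on KB1P losses and the fit on all tumours called 0 members. The count of 866 over all genes fell to 4 when only these 2 groups entered the fit, and to 4 without the noisiest 25% of tumours.

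The mean segment value of the stretch was -0.22 in KB1P and -0.18 in KB2P, a difference of -0.039 (SE 0.0726). The lost share differed by 3.03 percentage points (SE 10.3), and with loss set at -0.2 or lower by -6.65 points. The step from the first to the second part of the stretch differed by 0.093 (SE 0.093). No p is given for these 3, since the stretch was selected on KB1P losses, and each difference was smaller than its SE or about equal to it. KB2P shared no library series with another genotype, so that series and genotype cannot be told apart.

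In the second comparison, KB2P minus KP adenocarcinomas, limma called 0 members, against 4 of all genes (0.00919%), and 253 members (24.0%) had an unadjusted p under 0.05, against 9.11% of all genes. In a check with shuffled group labels, limma recovered 0% of genes shifted by 0.25 in this comparison and 33% of those shifted by 0.5. The absence of calls therefore does not show that the groups are equal. The lowest member p was that of 1500026H17Rik, at -0.37 (SE 0.129, limma adjusted p = 0.175). Of the members 785 had a difference below 0, and the median was -0.19, against 0.034 over all genes. The mean lost share was 41.2% in KB2P and 10.7% in KP, a difference of 30.5 points (SE 13.0, exact permutation p = 0.0628, adjusted p = 0.188). All of the KP share came from replicate 3, and without it the difference was 41.2 points (exact permutation p = 0.0209, adjusted p = 0.0628). The mean segment value differed by -0.10 (SE 0.0877, exact permutation p = 0.391, adjusted p = 0.586), the number of breakpoints by 5.76 (SE 5.73, exact permutation p = 0.3, adjusted p = 0.3) and the step between the parts by 0.23 (SE 0.0778, exact permutation p = 0.151, adjusted p = 0.226).

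In the third comparison, carcinosarcomas minus sarcomatoid tumours within KB1(L1363P)P, limma called 0 members, against 40 of all genes (0.0919%), and 0 members had an unadjusted p under 0.05, against 5.07% of all genes. With only these 2 groups in the fit, the count over all genes rose to 2540, again with 0 members. In the check with shuffled group labels, limma recovered 0% of genes shifted by 0.25 in this comparison and 29.5% of those shifted by 0.5. The lost share was 7.05% in carcinosarcomas and 0% in sarcomatoid tumours (SE 7.05, exact permutation p = 0.429, adjusted p = 0.643), and the whole share came from replicate 6. With loss set at -0.1 or lower the difference was -41.1 points, in the other direction (exact permutation p = 0.0294, adjusted p = 0.0882). The mean segment value was -0.019 and -0.077 (difference 0.058, SE 0.0499, exact permutation p = 0.275, adjusted p = 0.586). Breakpoints numbered 2.11 and 0.083 (exact permutation p = 0.0632, adjusted p = 0.16), and 0.79 is the difference without replicate 6. In all lists, too, limma called 0 members in the 3 comparisons.

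Chromosome 10 as a whole, with its gained start, was lost less than several other chromosomes. Its lost share was 35.7% in KB1P adenocarcinomas, below 43.5% on chromosome 8, 41.6% on chromosome 12 and 37.8% on chromosome 14. In KB2P it was 30.8%, below 45.0% on chromosome 8, 39.4% on chromosome 13, 37.6% on chromosome 12 and 34.1% on chromosome 14. The stretch itself was chosen for its loss and is not ranked beside whole chromosomes. Over the tumours, the segment value after the middle went most with that of chromosome 19, with a correlation of 0.66 over 29 KB1P and 0.47 over 25 KB2P adenocarcinomas, given as a description since all chromosomes of a tumour share its share of tumour cells. Chromosome 19 was picked as the highest of 18 other autosomes. Chromosome 13 came close to it in KB1P, at 0.655, but was at -0.0701 in KB2P.

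The lost share of KB1P adenocarcinomas was 61.3% ± 42.2 (SD, n = 8) in library series 5289, 45.1% ± 32.4 (SD, n = 8) in series 2766 and 33.3% ± 41.1 (SD, n = 11) in series D. In KB2P it was 40.6% ± 38.3 (SD, n = 20) in series 3196 and 43.4% ± 33.9 (SD, n = 5) in series 3499. KB1P tumours titled KB1PM had 36.5% ± 35.6 (SD, n = 10) and the others 48.3% ± 41.2 (SD, n = 19). Loss was thus found in each of these subsets, with differences smaller than the spread within them. Titles share a number in 3 pairs of KB1(L1363P)P samples, which may come from 1 animal: sarcomatoid replicate 3 had 0% lost and its partner, adenocarcinoma replicate 1, had 57.6%, while both samples of the other pairs had 0%. In the pair of carcinosarcoma replicates 8 and 9, the log2 ratios left after removal of the segments correlated at 0.711, against a median of 0.275 between carcinosarcomas of this genotype. They are counted as 2 samples here.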

How the data were processed

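DNA of 98 mammary tumours and 3 spleens gave shallow sequencing libraries. BWA alignment, read counting in bins of 20 kb and correction for GC content and mappability are described in the labels' protocols. The submitters' processing notes name cutadapt 2.5, BWA 0.7.17, SAMtools 1.10, Picard and the mouse build mm10, while the protocol text names a human build. The mouse build was used for positions. The authors deposited log2 ratios, log2 segment values and a whole-number copy score per gene (2 is neutral), which equalled the rounded copy number of the segment value in 99.9919% of cells. How segments were made and how bins became genes is not given in the sources used here, and read depth is unknown; the spread of neighbouring log2 ratios, 0.039 to 0.097 (median 0.051), bounds the precision of a gene value.

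Genes were placed by symbol with a RefSeq table of GRCm38.p6: 32687 of 43513 were placed and 10826 were not. Members passed through no filter on values. The members and gene lists were chosen with earlier results of these data known. Groups came from the genotype and histology labels. Whether tumours are from separate animals is not in the labels, so that p-values cover the spread between samples alone.

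limma 3.58.1 (R 4.3.3, with version 1.17.8 of data.table) was fitted to the segment values of all genes in all 98 tumours, with Benjamini-Hochberg adjustment over 43513 genes. Values per tumour were compared by two-sided permutation tests, exact where a group had under 10 tumours and otherwise with 100000 resamples, adjusted over 3 comparisons, and the step within tumours by sign flips, adjusted over 6 groups. KB1P adenocarcinomas were among those 6. Neighbouring members share segments, so the tests per tumour are the main ones. Partial loss is loss of 1% to 90% of members. Named are the outer genes of minimal regions and of loss edges, listed genes by their counts, and the outer genes of deep loss and high gain. Other steps used Python 3.11.15, NumPy 2.4.6, pandas 2.3.3 and matplotlib 3.10.9. Scripts were tested on simulated data. Alternatives covered thresholds, scaling, unsegmented ratios, borders, noise, library series, uncertain titles and single tumours.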

Additional observations from a re-analysis of the deposited data

Results flagged for a closer look

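In 3 groups of 4 to 10 tumours, 12 combinations of group and measure were examined for a tumour far from the others, and 6 stood out. For the lost share all other tumours of the group were at 0%, where any tumour above 0% stands out whatever its value. No rate by chance is given for that reason. All 6 belong to 2 tumours. KP adenocarcinoma replicate 3 had 64% of members lost against 0% in the other 5, 32 breakpoints against 0 to 4, and a difference between the parts before and after the middle of -0.0687 against 0 to 0.04. KB1(L1363P)P carcinosarcoma replicate 6 had 63.5% of members lost against 0% in the other 8, 12 breakpoints against 0 to 5, and a difference between the parts of 1.33 against 0 to 0.166. Both carry the losses of their groups, so that their groups' mean lost shares describe 1 tumour each.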

How the results depend on the processing

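Of 278 values recomputed under other choices, 264 were labelled as unchanged. Test results had to keep their direction and their side of the threshold, and counts had to stay within 1.5 times. A group's mean lost share only had to stay within the SD of its tumours, a wide margin in KB1P (39.1 points) and KB2P (36.8 points) adenocarcinomas. The lost share depended most on its threshold. With loss at -0.2 or lower, KB1P minus KB2P was -6.65 points, carcinosarcomas minus sarcomatoid tumours of KB1(L1363P)P was -16.1, and the mean in the latter was 23.1%. With -0.1 these were -6.66, -41.1 and 48.1%, KB1(L1363P)P adenocarcinomas were at 72.7% and KP sarcomatoid tumours at 20%. Breakpoints of KB1P minus KB2P were 5.09 when any change of value counted. In unsegmented log2 ratios the KP sarcomatoid tumours had a step of -0.0135 between the parts (10 tumours, permutation by sign flips, adjusted p = 0.0273), where segment values gave 0. KB2P in library series 3499 gave a step of -0.0767, chosen after seeing the data. Without KB1P replicate 7 and the tumours titled KB1PM, limma called 5 members for KB1P minus KB2P, with 1.76% of all genes called, and the most often lost members were lost in 11 tumours, the latter added after seeing the data. The cause was not tested in these cases.

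Leaving out 1 tumour at a time gave, for KB2P minus KP, breakpoints of 4.56 to 11.0, lost shares of 28.4 to 41.2 points, mean segment values of -0.151 to -0.0713 and a difference in step of 0.221 to 0.242. For carcinosarcomas minus sarcomatoid tumours the ranges were 0.792 to 2.29, 0 to 7.93, 0.0312 to 0.0815 and 0.0137 to 0.180. The step within carcinosarcomas was 0.0219 to 0.188, and that within KP adenocarcinomas was -0.0138 to 0.00800, the highest without replicate 3. Counts of all genes called for the third comparison were 0 without the noisiest 25% of tumours and 0 within library series 5289, against 40. No paired analysis was possible because replicate numbers follow accession order, and the numbers that 3 pairs of KB1(L1363P)P titles share join no tumours across the 2 groups of a tested comparison.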
